A study of Mus musculus with 6 samples.

Results

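Heat shock proteins and DnaJ proteins were examined in RNA from sorted mammary cells. The 72 members were selected on their gene symbols from the 55291 symbols counted: the cytosolic, endoplasmic reticulum and mitochondrial HSP70s (Hspa genes), the HSP90s (Hsp90 genes), HSP110 (Hsph1), the small heat shock proteins (Hspb genes), the mitochondrial chaperonin pair Hspd1 and Hspe1, the DnaJ co-chaperones (Dnaja, Dnajb and Dnajc genes), the co-chaperone Bag3 and the transcription factor Hsf1. The split into 9 heat-inducible and 9 constitutive members was proposed with the levels in these same 6 libraries known, so the levels are given as a description. The libraries were made from CD49f-high cells of pubertal Adgra3-lz/+ mice, in which lacZ replaces exons 16 to 19 of 1 Adgra3 allele (Adgra3 encodes Gpr125) and yields a fusion with β-galactosidase. The labels give an age of 6 weeks, and tissue of 5 mice was pooled for each sample. Cells with β-galactosidase activity (Gpr125+) were sorted separately from the TEB-distal part of the gland, which holds the terminal end buds, and from the nipple-proximal part (2 libraries each). Cells without that activity (Gpr125-negative) gave the other 2 libraries. The study's design names both regions as sources of Gpr125-negative cells as well, but which region each of these 2 libraries came from is not stated, so a regional difference between them cannot be told apart from the spread between replicates. All groups carry the lz allele and came through the same enzymatic dissociation at 37 °C, and cells positive for CD31, CD45 or Ter119 were removed before the sort, while the methods of the study also list an antibody against the fibroblast marker CD140a. Whether samples of different groups shared mice is not stated, so p-values measure only the spread between these samples.

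Molecular chaperones hold unfolded proteins and help them fold. HSP70s bind short stretches of unfolded chains in a cycle driven by ATP, DnaJ proteins deliver clients and trigger that hydrolysis, and HSP90s take over late folding steps of kinases and steroid receptors. Under heat or other proteotoxic stress, HSF1 trimers bind heat shock elements, built from inverted GAA and TTC units, and switch on the inducible members, while the constitutive members serve unstressed cells. The endoplasmic reticulum has its own HSP70, HSP90 and DnaJ set under the unfolded protein response, and mitochondria have another.

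Total counts were between 20134890 and 37296640 per library, so that 3 counts correspond to 0.0804 to 0.149 reads per 1e6 before TMM scaling, which covers counting error only. Levels are given as CPM (TMM-scaled reads per 1e6). The libraries differed in ways the labels do not describe. Genes with more than 3 counts numbered 14188 in replicate 2 labelled Gpr125-negative and 17304 to 18846 in the other 5, and the pair labelled Gpr125-negative correlated least (Pearson's r of log2 CPM across genes 0.733, against 0.791 for the TEB-distal and 0.933 for the nipple-proximal pair). Adgra3 itself did not follow the labels, at 35.7 and 18.6 (labelled Gpr125-negative), 15.0 and 4.83 (TEB-distal) and 19.2 and 12.3 CPM (nipple-proximal), and the group is therefore named by its label throughout. Itga6, which encodes CD49f, was at 62.7 to 191 CPM. All 10 basal markers were detected in every library, with summed levels of 3383 and 3532 (labelled Gpr125-negative), 3858 and 22186 (TEB-distal) and 9324 and 14721 CPM (nipple-proximal), and the 10 luminal markers summed to 1424 to 2905 CPM. Markers of endothelial cells, which the CD31 gate should remove, summed to 1278 and 806 (labelled Gpr125-negative), 13.7 and 14.4 (TEB-distal) and 197 and 16.2 CPM (nipple-proximal), with Pecam1 (CD31) at 43.4 and 56.2 CPM in the libraries labelled Gpr125-negative. Summed fibroblast, pericyte and leukocyte markers were at or below 173, 24.4 and 307 CPM.

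Promoter sequences are shown because they hold the element that HSF1 reads. The choice of members by symbol did not use this feature. The heat-inducible list, however, is defined by heat induction, in which HSF1 acts, so the shares by list are a description. Promoter windows of 300 bases (250 before and 50 from the start site on, RefSeq, GRCm38.p6) were held for 58 of the 72 members. A pair of inverted heat shock units, GAANNTTC or TTCNNGAA (each reads the same on both strands, and they may overlap), was present in 7 of the 8 heat-inducible members with a window (87.5%), in 1 of 5 constitutive members (20.0%, Dnajb6), in 16 of all 58 members (27.59%) and in 16.97% of the 27025 genes with a window. The 7 were Hspa1a, Hspa1b, Hsph1, Hspb1, Dnaja1, Dnajb4 and Bag3, and the window of Dnajb1 held neither spelling. In the following stretches before the start sites, the paired units are in capitals. Hspa1a (chr17:34972207-34972306, minus strand) and Hspa1b (chr17:34959289-34959388, minus strand) are adjacent copies with the same 100 bases here, and over the whole window they were identical at 296 of 300 positions. Hspb1 (chr5:135887766-135887865, plus strand) held 2 pairs, and Hsph1 (chr5:149636351-149636380, minus strand) is given over 30 bases, because these lie in an exon of a longer annotated transcript.
Hspa1a: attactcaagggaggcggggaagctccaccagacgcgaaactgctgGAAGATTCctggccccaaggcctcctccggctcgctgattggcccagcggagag
Hspa1b: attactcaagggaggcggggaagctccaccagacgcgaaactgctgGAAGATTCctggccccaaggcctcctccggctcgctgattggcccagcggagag
Hspb1: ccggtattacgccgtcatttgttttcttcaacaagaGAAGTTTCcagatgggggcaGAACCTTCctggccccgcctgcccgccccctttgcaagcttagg
Hsph1: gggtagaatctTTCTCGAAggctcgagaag

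Hspa1a and Hspa1b encode the strictly inducible HSP70, and their levels spread most within the heat-inducible group. Hspa1a was at 429 and 7031 CPM in the pair labelled Gpr125-negative, 1666 and 1835 CPM in the TEB-distal pair and 576 and 896 CPM in the nipple-proximal pair (replicate 1 first in each pair). Hspa1b was at 1259.9 and 19834 CPM in the pair labelled Gpr125-negative, 10937 and 4133 CPM in the TEB-distal pair and 2852 and 6143 CPM in the nipple-proximal pair. Both genes were therefore lowest in replicate 1 and highest in replicate 2 of the libraries labelled Gpr125-negative, 16.4-fold and 15.7-fold apart, and every Gpr125+ library lay between these 2. In a bulk sample, fewer cells with a transcript and less of it per cell cannot be told apart. The 2 copies share 58.81% (Hspa1a) and 62.31% (Hspa1b) of their 50-base stretches, so the split of reads between them is uncertain. Both levels, and their sum, may also lack shared reads. Summed, the pair was at 1689 and 26865 CPM in the pair labelled Gpr125-negative, 12604 and 5968 CPM in the TEB-distal pair and 3428 and 7039 CPM in the nipple-proximal pair.

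The other inducible members had the same lowest library. Hsph1, the HSP110 that exchanges nucleotide on HSP70, was at 769 and 5772 CPM in the pair labelled Gpr125-negative, 3438 and 3891 CPM in the TEB-distal pair and 2015 and 2843 CPM in the nipple-proximal pair. Dnajb1, the J-protein that drives HSP70 in disaggregation, was at 506 and 3296 CPM in the pair labelled Gpr125-negative, 1883 and 4046 CPM in the TEB-distal pair and 1919 and 1905 CPM in the nipple-proximal pair. Replicate 1 labelled Gpr125-negative was the low library for both, and both TEB-distal values of Hsph1 exceeded both nipple-proximal values. Hsp90aa1, the inducible cytosolic HSP90, was at 964 and 8348 CPM in the pair labelled Gpr125-negative, 5158 and 3880.0 CPM in the TEB-distal pair and 2299 and 3387 CPM in the nipple-proximal pair. The HSP70 partners Dnaja1 and Dnajb4 ranged over 187 to 1698 CPM and 40.9 to 568 CPM, 9.09-fold and 13.9-fold. In both, TEB-distal replicate 1 (1355 and 487 CPM) was far above TEB-distal replicate 2 (370.5 and 187 CPM). Bag3, which links HSP70 to selective autophagy, was at 401 CPM in replicate 1 labelled Gpr125-negative and at 980.4 to 1574 CPM in the other 5 libraries. Hspb1, the small heat shock protein HSP25, kept another order, at 4041 and 5711 CPM in the pair labelled Gpr125-negative, 4226 and 18286 CPM in the TEB-distal pair and 8559.8 and 6754 CPM in the nipple-proximal pair: its highest value was in TEB-distal replicate 2, the library with the highest basal marker sum, a relation that was not tested. Up to 47.49% of the 50-base stretches of Hsp90aa1 and 48.83% of those of Hspb1 occur in other annotated genes, mostly pseudogenes, so their levels may hold or lack shared reads. In all 9 heat-inducible members the lowest library was replicate 1 labelled Gpr125-negative, and the highest was replicate 2 of that group in 6 and TEB-distal replicate 2 in 3 (Dnajb1, Hspb1 and Bag3). Of all 17268 tested genes, 3973 were lowest in replicate 1 labelled Gpr125-negative. Replicate 2 of that group was highest for 19.1% of them and TEB-distal replicate 2 for 19.3%.

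**Figure D1:**
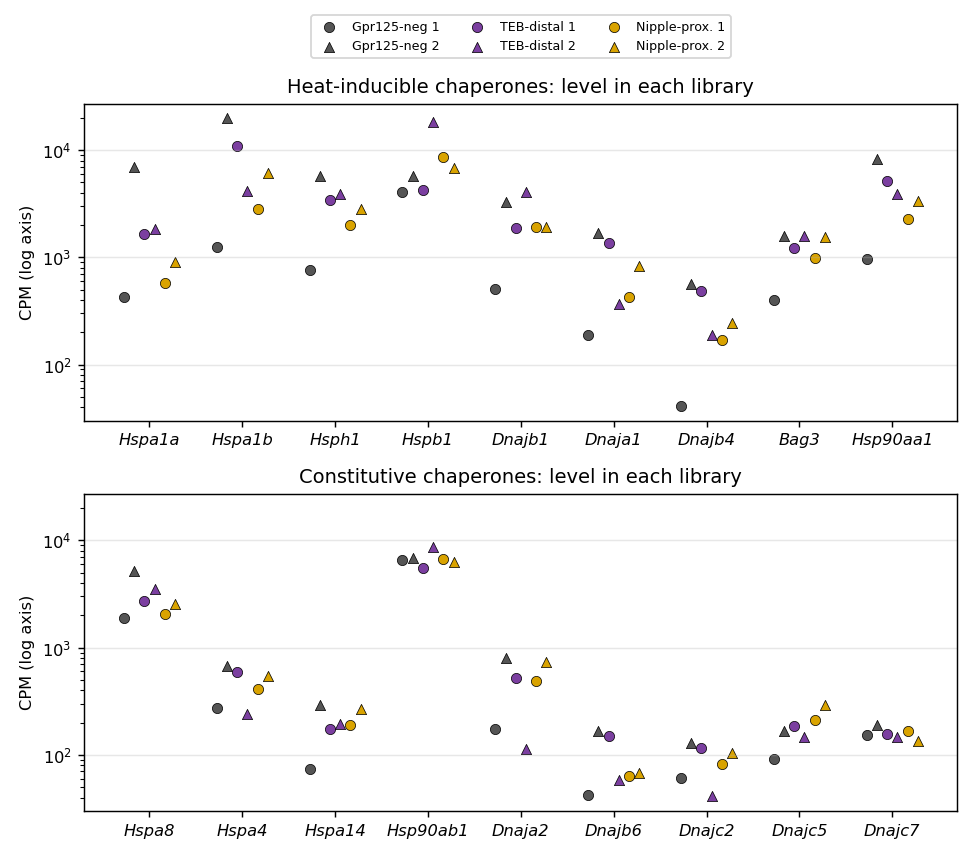
Level of each heat-inducible (top) and constitutive (bottom) chaperone gene in CPM on a log axis; every point is 1 library, with circles for replicate 1 and triangles for replicate 2. The grey circle (replicate 1 labelled Gpr125-negative) is the lowest point for all 9 heat-inducible genes, and Hspa1b runs from 1259.9 to 19834 CPM, while Hsp90ab1 stays between 5554 and 8594 CPM.

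Most constitutive members varied less among the libraries than most heat-inducible members. The ranges of the 2 lists overlapped, as the inducible Bag3 and Hspb1 moved only 3.93-fold and 4.52-fold. Hsp90ab1, the housekeeping HSP90, was at 6623 and 6854 CPM in the pair labelled Gpr125-negative, 5554 and 8594 CPM in the TEB-distal pair and 6702 and 6286 CPM in the nipple-proximal pair, a 1.55-fold range. Hspa8, the constitutive HSC70 that also uncoats clathrin vesicles, was at 1897 and 5165 CPM in the pair labelled Gpr125-negative, 2706 and 3524 CPM in the TEB-distal pair and 2066 and 2537 CPM in the nipple-proximal pair. Its highest library was again replicate 2 labelled Gpr125-negative, yet the range was 2.72-fold against 15.7-fold for Hspa1b. Dnajc7, a tetratricopeptide co-chaperone that bridges HSP70 and HSP90, ranged over 134 to 191 CPM. The HSP110-type Hspa4 (241 to 669.7 CPM), the ribosome-associated Hspa14 (73.4 to 292 CPM) and Dnajc2 (41.3 to 128 CPM), the synaptic vesicle protein Dnajc5 (90.6 to 292 CPM) and Dnajb6 (42.2 to 165 CPM), a suppressor of aggregation, moved 2.78-, 3.97-, 3.10-, 3.22- and 3.92-fold. Dnaja2, a close relative of Dnaja1, had the widest constitutive range, from 113 CPM in TEB-distal replicate 2 to 792 CPM in replicate 2 labelled Gpr125-negative. Replicate 2 labelled Gpr125-negative was the highest library for 7 of the 9 constitutive members, and replicate 1 of that group was the lowest for 4.

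Ratios within a library, which do not depend on the scaling between libraries, differed between pairs of genes. Per kilobase of exon, Hspa1b stood at 1.02 times Hspa8 in replicate 1 labelled Gpr125-negative and 5.89 times in replicate 2, 6.20 and 1.80 times in the TEB-distal pair and 2.12 and 3.72 times in the nipple-proximal pair. Per kilobase, Hsp90aa1 was 0.111 and 0.929 times Hsp90ab1 in the pair labelled Gpr125-negative, 0.709 and 0.344 times in the TEB-distal pair and 0.262 and 0.411 times in the nipple-proximal pair. By both ratios the inducible copy was lowest in replicate 1 labelled Gpr125-negative, and replicate 2 of that group and TEB-distal replicate 1 were the 2 highest. Dnajb1 over the constitutive Dnaja2 gave another order, at 2.69 and 3.86 times per kilobase in the pair labelled Gpr125-negative, 3.34 and 33.2 times in the TEB-distal pair and 3.66 and 2.40 times in the nipple-proximal pair, highest in TEB-distal replicate 2, where Dnaja2 was lowest, and lowest in nipple-proximal replicate 2. Over both lists, the median log2 CPM of the inducible members exceeded that of the constitutive members by 1.71 and 4.29 in the pair labelled Gpr125-negative, by 3.34 and 4.71 in the TEB-distal pair and by 3.18 and 2.71 in the nipple-proximal pair. Hspa8 shares 38.58% of its 50-base stretches with other annotated genes, so its ratios carry that uncertainty.

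The 2 libraries labelled Gpr125-negative differed more from each other in the inducible members than any other pair did. From replicate 1 to replicate 2 the median difference in log2 CPM was 3.11 over the heat-inducible members (higher in 9 of 9), 1.29 over the constitutive members (9 of 9) and -0.39 over all 17268 tested genes. The TEB-distal pair differed by a median of 0.14 over the heat-inducible members (5 of 9 higher in replicate 2), and the nipple-proximal pair by 0.56 (7 of 9). Without regard to sign, the heat-inducible medians of these pairs, in the same order, were 3.11, 1.10 and 0.56. Over all tested genes they were 1.65, 1.20 and 0.59. Of all tested genes, 66.6%, 57.4% and 29.0% differed more than 2-fold, and of the 9 heat-inducible members 8, 5 and 1 did. Summed over the 9 inducible members, the level was 8598 and 53831 (labelled Gpr125-negative), 30368 and 38202 (TEB-distal) and 19797 and 24562 CPM (nipple-proximal). Single genes carried much of it: Hspa1b was 19834 CPM of the sum in replicate 2 labelled Gpr125-negative, and Hspb1 18286 CPM in TEB-distal replicate 2. The constitutive sum stayed within 9389.9 to 14424 CPM, its values in replicates 1 and 2 labelled Gpr125-negative. Hsp90ab1 alone was 6623 and 6854 CPM of these, so the sum varied less than most of its members. Summed mitochondrially encoded transcripts also differed within the pair labelled Gpr125-negative, at 2417 and 31862 CPM, and the part of these library differences in the chaperone levels was not tested.

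**Figure D2:**
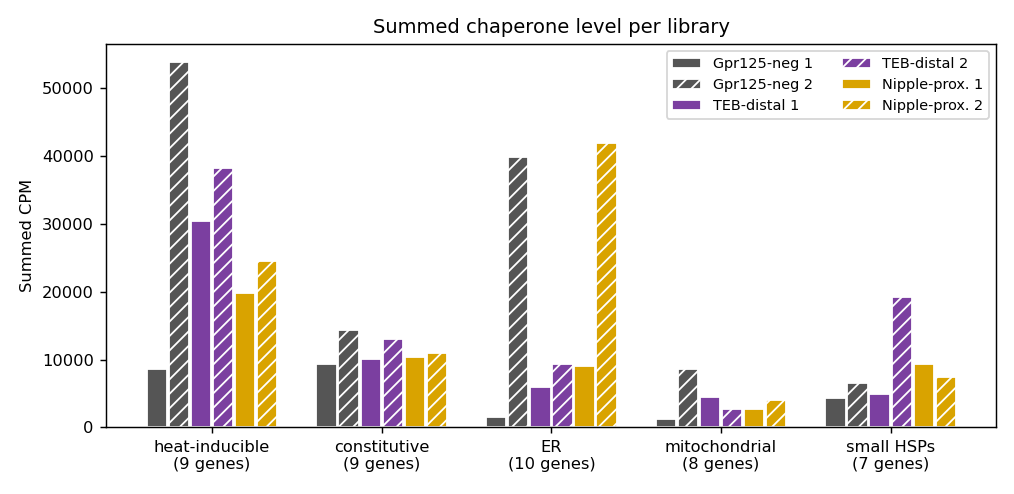
Summed level, in CPM, of 5 groups of chaperone genes in each of the 6 libraries; plain bars are replicate 1 and hatched bars replicate 2. The constitutive bars lie between 9389.9 and 14424 CPM, of which Hsp90ab1 alone is 5554 to 8594 CPM. The heat-inducible bars run from 8598 to 53831 CPM and the endoplasmic reticulum (ER) bars from 1597 to 41899 CPM. Single genes carry much of these bars as well. Hspa5 and Hsp90b1 are 29952 and 8345 CPM of the highest ER bar, in nipple-proximal replicate 2. Hspb1 is 18286 CPM of the heat-inducible bar of TEB-distal replicate 2 (38202 CPM). Hspb1 counts in both the heat-inducible and the small heat shock protein bars.

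The chaperones of the endoplasmic reticulum rested on a different pair of libraries. Hspa5 (BiP), the HSP70 of the endoplasmic reticulum and a sensor in the unfolded protein response, was at 878 and 28286 CPM in the pair labelled Gpr125-negative, 3013 and 6632 CPM in the TEB-distal pair and 6102 and 29952 CPM in the nipple-proximal pair. Hsp90b1 (GRP94), the HSP90 of this compartment, was at 359 and 8501 CPM in the pair labelled Gpr125-negative, 1470.1 and 1838 CPM in the TEB-distal pair and 1916 and 8345 CPM in the nipple-proximal pair. Replicate 2 of the libraries labelled Gpr125-negative and replicate 2 of the nipple-proximal libraries were thus far above the other 4. Dnajb9 (ERdj4), an inhibitor of the stress sensor IRE1, followed these 2 but was also raised in TEB-distal replicate 1, at 49.9 and 1986 CPM in the pair labelled Gpr125-negative, 1099 and 260.3 CPM in the TEB-distal pair and 494 and 1702 CPM in the nipple-proximal pair. Dnajc3 (P58IPK), an inhibitor of eIF2α kinases, was highest in the same pair (700.2 and 1161 CPM) and between 93.8 and 370.5 CPM elsewhere, and Dnajb11 (ERdj3) stood at 231 and 409 CPM in these 2 libraries against 56.7 to 154 CPM in the other 4. The remaining 5 members of this group, Hspa13 (20.8 to 182 CPM), Dnajc10 (14.5 to 55.9 CPM), Dnajc1 (24.5 to 82.5 CPM), Dnajb14 (13.6 to 43.4 CPM) and Dnajb12 (5.73 to 35.1 CPM), lay below Hspa5 per kilobase of exon in every library. Of these, only Hspa13 and Dnajc10 were highest in nipple-proximal replicate 2.

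Per kilobase, Hspa5 was 0.471 and 5.57 times Hspa8 in the pair labelled Gpr125-negative, 1.13 and 1.91 times in the TEB-distal pair and 3.0 and 12.0 times in the nipple-proximal pair. Nipple-proximal replicate 2 was the library most weighted to the endoplasmic reticulum by this ratio, although its Hspa1b to Hspa8 ratio (3.72) was below those of replicate 2 labelled Gpr125-negative and TEB-distal replicate 1. The promoters of this group carried another element. CCAAT, then 9 bases, then CCACG (on either strand), the element read by the unfolded protein response factors, was present in the windows of Hspa5, Hsp90b1 and Dnajc3, 3 of the 9 members of the group with a window (33.33%), in no other member, and in 37 of the 27025 genes (0.1369%). The stretches, with the element in capitals, are at chr2:34772019-34772048 (plus strand), chr10:86705528-86705557 (minus strand, with the element in the opposite orientation) and chr14:118937786-118937885 (plus strand), and those of Hspa5 and Hsp90b1 are given over 30 bases.
Hspa5: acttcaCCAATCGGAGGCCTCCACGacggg
Hsp90b1: agagtgCGTGGTGAGGCACGATTGGtgagt
Dnajc3: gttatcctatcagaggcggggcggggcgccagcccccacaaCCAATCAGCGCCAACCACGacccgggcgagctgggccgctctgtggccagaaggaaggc

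The mitochondrial members did not share 1 order of libraries. Hspe1 (HSP10), the lid of the mitochondrial chaperonin, was at 281 and 4087 CPM in the pair labelled Gpr125-negative, 2074 and 932 CPM in the TEB-distal pair and 798 and 948 CPM in the nipple-proximal pair. Hspd1 (HSP60), the barrel of the same chaperonin, was at 360.2 and 1980.3 CPM in the pair labelled Gpr125-negative, 928 and 718 CPM in the TEB-distal pair and 567 and 750.3 CPM in the nipple-proximal pair. Both were lowest in replicate 1 and highest in replicate 2 of the libraries labelled Gpr125-negative, 14.6-fold and 5.50-fold apart, with TEB-distal replicate 1 in the next place. The 2 genes lie head to head on chromosome 1 and share 1 promoter, in which 3 overlapping paired units stand in a row (chr1:55088053-55088082, plus strand of Hspe1, 30 bases), a run shown because it serves both genes.
Hspe1: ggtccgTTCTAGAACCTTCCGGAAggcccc
Their annotated ends overlap on opposite strands and the counting ignored strand, and 39.74% (Hspd1) and 18.39% (Hspe1) of their 50-base stretches occur in other annotated genes, so the counts are uncertain to that extent. Hspa9 (mortalin), the HSP70 of the matrix and of protein import, was at 418 and 2432 CPM in the pair labelled Gpr125-negative, 1292 and 958 CPM in the TEB-distal pair and 1136 and 2054 CPM in the nipple-proximal pair. The import factors Dnajc15 (14.2 to 35.5 CPM) and Dnajc19 (1.46 to 9.27 CPM), the cristae protein Dnajc11 (13.7 to 102 CPM), Dnajc30 (3.37 to 20.6 CPM) and the matrix J-protein Dnaja3 (26.6 to 143 CPM) did not share the low value of replicate 1 labelled Gpr125-negative, and for Dnajc11, Dnajc19 and Dnajc30 that library was the highest, with ranges of 7.45-, 6.33- and 6.10-fold.

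Among the 7 small heat shock proteins, which hold unfolded proteins without ATP, 4 were tested and 3 (Hspb3, Hspb7 and Hspb9) were at or near 0 counts. Hspb8, the partner of Bag3, was at 229 and 836 CPM in the pair labelled Gpr125-negative, 619.8 and 929.6 CPM in the TEB-distal pair and 748 and 582 CPM in the nipple-proximal pair. Hspb6 (HSP20), known from smooth muscle, was at 14.5 and 23.5 CPM in the pair labelled Gpr125-negative, 9.47 and 57.3 CPM in the TEB-distal pair and 22.5 and 20.5 CPM in the nipple-proximal pair. Together with Hspb1 and Hspb2 (0.0677 to 4.22 CPM), each was highest in TEB-distal replicate 2, where the basal markers, which include the contractile genes Acta2, Myh11 and Cnn1, summed to 22186 CPM against 3383 to 14721 CPM in the other 5. Not every basal marker followed this sum. In that library Trp63 was at its lowest (6.47 CPM), and Krt5 (766 CPM) and Oxtr (60.2 CPM) were below nipple-proximal replicate 1 (922 and 74.7 CPM). Whether the muscle-like genes account for the values of the small heat shock proteins was not tested. Hspb2 overlaps Cryab on the other strand, so its few reads are uncertain. Of the lineage-restricted HSP70s, the testis-associated Hspa2 was present at 22.9 to 49.9 CPM, Hspa12a at 0.589 to 10.8 CPM, Hspa1l at 0 to 2.18 CPM, and Hspa12b did not pass the filter on low counts.

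**Figure D3:**
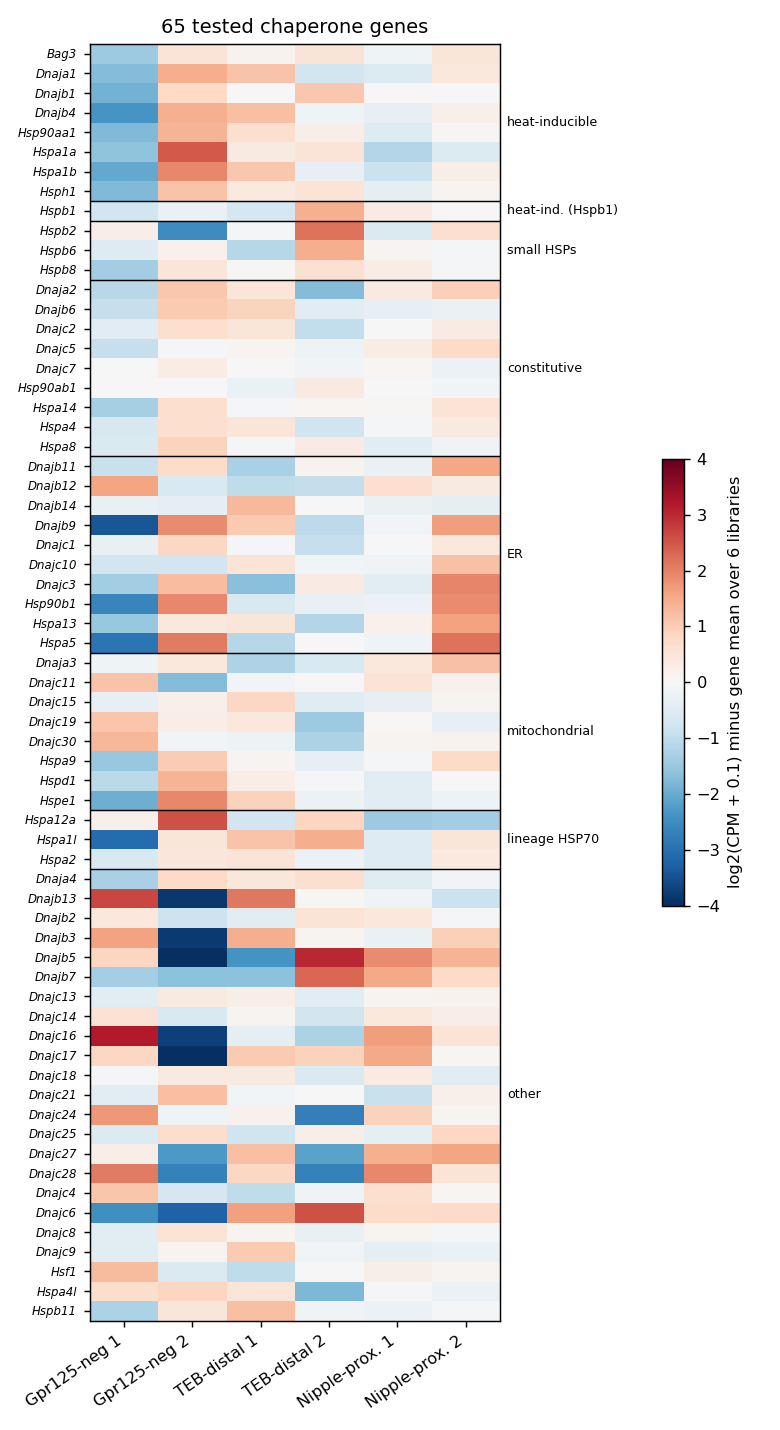
Levels of the 65 tested chaperone genes in each library, as log2(CPM + 0.1) minus the mean of that gene over the 6 libraries (color scale from -4 to 4), grouped by list. All 9 heat-inducible genes are below their mean in replicate 1 labelled Gpr125-negative and 8 of them, all but Hspb1, above it in replicate 2. For Hspa5, Hsp90b1 and Dnajc3 the 2 highest columns are replicate 2 labelled Gpr125-negative and nipple-proximal replicate 2.

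Hsf1, the factor that activates the inducible members, had a level order of its own, at 174 and 48.3 CPM in the pair labelled Gpr125-negative, 35.6 and 70.8 CPM in the TEB-distal pair and 84.1 and 77.3 CPM in the nipple-proximal pair. It was highest in the library in which the inducible members were lowest. Its level is that of a transcript, and the activity of HSF1 is set mainly after translation. The other 25 members outside the lists were mostly low: 22 of them were tested, and the highest per kilobase of exon was Dnajc8, a J-protein linked to splicing, with a median of 61.8 CPM per kilobase. Dnajb8 had 0 counts in every library, Dnajc12 had 74 counts in replicate 1 labelled Gpr125-negative alone, and Dnajc22 had 51 counts in TEB-distal replicate 2 alone. Some low members were at 0 or nearly so in replicate 2 labelled Gpr125-negative, the library with the fewest detected genes, among them Dnajb5, Dnajb13, Dnajc16, Dnajc17 and Dnajc28. Of the 72 members, 56 had more than 3 counts in that library and 64 to 66 in the others.

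TEB-distal Gpr125+ cells were first compared with the cells labelled Gpr125-negative. No member passed the threshold of an adjusted p under 0.1 with at least a 2-fold change in edgeR, and neither did any of the 17268 genes (0%). At an unadjusted p under 0.05, 1 of the 65 tested members passed (Dnajc6) against 6.05% of all genes, and DESeq2 called the same member and 5.43% of all genes. Dnajc6 (auxilin), the J-protein of clathrin uncoating in neurons, (chromosome 4, 101496648 to 101642799 on the plus strand of GRCm38) had only 6 and 1 counts in the pair labelled Gpr125-negative, 97 and 214 counts in the TEB-distal pair and 40 and 43 counts in the nipple-proximal pair. Its levels were 0.129 and 0.0339 (labelled Gpr125-negative), 3.78 and 7.29 (TEB-distal) and 1.96 and 2.02 CPM (nipple-proximal), its log2 fold change was 5.98 (SE 1.91), and the adjusted p was 0.803 in edgeR and 0.000218 in DESeq2. Dnajc6 passed the filter on low counts only through the Gpr125+ libraries, where it was higher. Its values in both comparisons with the libraries labelled Gpr125-negative are therefore a description. The heat-inducible members had log2 fold changes from -1.09 (Hspa1a) to 1.21 (Hspb1), with a median of 0.15 and 5 of 9 above 0, beside a median of 0.03 over all tested genes. For Hspa1b the means were 7535 ± 4811 CPM (SD, n = 2) in TEB-distal and 10547 ± 13134 CPM (SD, n = 2) in the libraries labelled Gpr125-negative, and its log2 fold change of -0.49 (SE 1.26) had an adjusted p of 1 in edgeR. The constitutive members had a median of -0.18 (3 of 9 above 0), the endoplasmic reticulum members -0.70 (3 of 10), the mitochondrial members -0.52 (1 of 8) and the 4 tested small heat shock proteins 1.01 (4 of 4). These medians depended on single libraries: with each left out in turn, the endoplasmic reticulum median ran from -1.34 (without replicate 1 labelled Gpr125-negative) to 1.06 (without replicate 2), the mitochondrial median from -0.96 to -0.04 (without the same 2) and the small heat shock protein median from 0.00 (without TEB-distal replicate 2) to 1.73 (without TEB-distal replicate 1). The smallest adjusted p among the members of these lists was 0.887 (Dnajb12). The groups did not overlap, with TEB-distal higher, for 5 of 65 members (14.0% of all genes) and, with TEB-distal lower, for 4 (10% of all genes). Outside the lists these were Dnajc6 and Dnajc17 (higher, 1.15 for the latter) and Hspa4l (lower, -1.04).

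Nipple-proximal Gpr125+ cells were compared with the same 2 libraries labelled Gpr125-negative, so the results of these comparisons share their reference. Again no member and no gene was called in edgeR (0%), and 1 of 65 members had an unadjusted p under 0.05 (Dnajc6, 3.55% of all genes). DESeq2 called Dnajc6 alone among the members and 1.97% of all genes. Its log2 fold change was 4.51 (SE 1.79), with an adjusted p of 1 in edgeR and 0.0414 in DESeq2. The heat-inducible members had a median log2 fold change of -0.56 (3 of 9 above 0) beside -0.00 over all genes, with Hspa1a lowest at -2.34 (SE 1.22) and Hspb1 highest at 0.65 (SE 0.93). Medians were -0.03 for the constitutive, 0.26 for the endoplasmic reticulum, -0.36 for the mitochondrial and 0.49 for the small heat shock protein members. Leaving out replicate 2 labelled Gpr125-negative moved the last 3 to 2.19, 0.55 and 0.75, leaving out its replicate 1 moved them to -0.13, -0.50 and 0.01, and without nipple-proximal replicate 2 the endoplasmic reticulum median was -0.37. The groups did not overlap, with nipple-proximal higher, for 7 of 65 members (19.9% of all genes) and, lower, for 3 (10.8%). Hspb1 (6754 and 8559.8 against 4041 and 5711 CPM), Dnajc5 (212 and 292 against 90.6 and 166 CPM) and Dnajc10 were among the higher ones. Outside the lists, Dnajc27 (2.14) was higher and Hspa4l (-0.93) lower without overlap, and Dnajb7 had 16 and 9 counts against 1 and 0. Like Dnajc6, Dnajb7 passed the filter on low counts only through Gpr125+ libraries.

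Which of the 2 libraries labelled Gpr125-negative served as reference decided the direction for the heat-inducible members. Against replicate 2 alone, the median log2 fold change was -0.90 (TEB-distal) and -1.57 (nipple-proximal), with 8 of the 9 members below 0 in each. Against replicate 1 alone it was 2.22 and 1.67, with all 9 members above 0 in both. The TEB-distal median of 0.15 was also -0.31 without TEB-distal replicate 1 and 0.07 without TEB-distal replicate 2. Hspb1 was the exception, with values above 0 against either library (0.87 and 1.47 when TEB-distal cells were set against it, 0.29 and 0.93 when nipple-proximal cells were), although it was at -0.21 in TEB-distal cells without TEB-distal replicate 2. The constitutive medians moved less, from -0.82 to 0.71 (TEB-distal) and from -0.51 to 0.64 (nipple-proximal). The median over all tested genes also moved, to at most 0.53 (TEB-distal, without replicate 1). No member was called with either library left out.

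**Figure D4:**
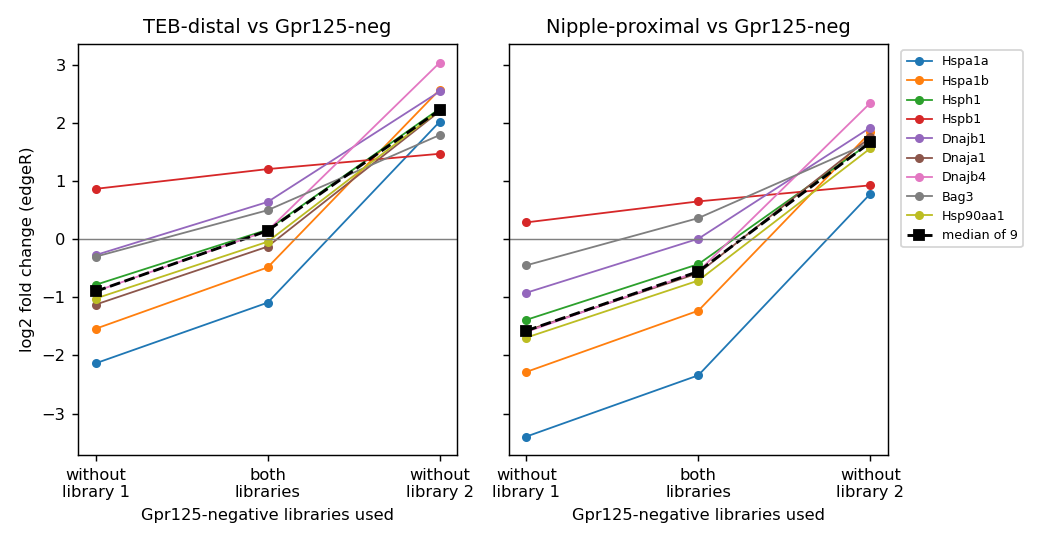
Log2 fold change (edgeR) of the 9 heat-inducible genes in TEB-distal (left) and nipple-proximal (right) Gpr125+ cells against the libraries labelled Gpr125-negative, with replicate 1 left out, both used, or replicate 2 left out; the dashed line is the median. The median runs from -0.90 through 0.15 to 2.22 on the left and from -1.57 through -0.56 to 1.67 on the right.

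The comparison of the 2 Gpr125+ populations did not use the libraries labelled Gpr125-negative as a reference. Its SEs and p-values still depend on them, because the spread was estimated from all 6 libraries together. All 9 heat-inducible members had positive log2 fold changes in TEB-distal against nipple-proximal cells, from 0.14 (Bag3) to 1.25 (Hspa1a), with a median of 0.63 beside 0.06 over all genes, and none was called. Hspa1a had means of 1751 ± 119 CPM (SD, n = 2) and 736 ± 226 CPM (SD, n = 2), a log2 fold change of 1.25 (SE 1.18) and an adjusted p of 1 in edgeR. The levels did not overlap for Hspa1a, Hsph1 and Hsp90aa1 (lowest TEB-distal value 3880.0, highest nipple-proximal value 3387 CPM), and overlapped for the other 6. Of all tested genes, 15.2% were likewise higher in the TEB-distal libraries without overlap. Leaving out single libraries kept the median at 0.41 to 0.96, but the sign of single members depended on the libraries. Without TEB-distal replicate 1, 6 of the 9 were above 0 (Dnaja1 was at -0.69, Dnajb4 at -0.08 and Hspa1b at -0.05), without TEB-distal replicate 2 also 6 (Hspb1 was at -0.88, Bag3 at -0.08 and Dnajb1 at -0.04), and without nipple-proximal replicate 1 it was 8 (Bag3 was at -0.17). The constitutive median was -0.20 (4 of 9 above 0; -0.40 to 0.05 with single libraries left out), so the 2 lists differed by 0.84, and by 0.68 to 1.01 when single libraries were left out.

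The endoplasmic reticulum members went the other way in the same comparison, with a median of -1.25 and 9 of 10 below 0 (Dnajb14 was the exception, at 1.10 (SE 0.81)). Hspa5 had a log2 fold change of -1.90 (SE 1.52) and Hsp90b1 of -1.63 (SE 1.38), both with an adjusted p of 1 in edgeR. Without nipple-proximal replicate 2 the median was -0.19 and 4 of 10 were above 0, so that library carried most of the difference. The mitochondrial median was -0.25, and it was -0.50 without TEB-distal replicate 1 and 0.08 without TEB-distal replicate 2. Dnaja3, which was at 26.6 and 41.2 CPM in TEB-distal and 83.7 and 143 CPM in nipple-proximal libraries, was the member with an unadjusted p under 0.05, at -1.74 (SE 0.68) (edgeR, 2.21% of all genes, adjusted p = 1). In edgeR 0 of 65 members and 0% of all genes were called, and in DESeq2 0 members and 0.844% of all genes. The groups did not overlap, with TEB-distal higher, for 11 members (15.2% of all genes) and, lower, for 12 (18.3%). Outside the lists these included Dnajb13, Dnajc6 and Dnajc9 (higher, 2.00, 1.47 and 0.91) and Dnajc16, Dnajc27 and Dnajc4 (lower, -2.09, -1.20 and -0.92). Hsf1 was also lower without overlap (-0.60 (SE 0.79)).

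**Figure D5:**
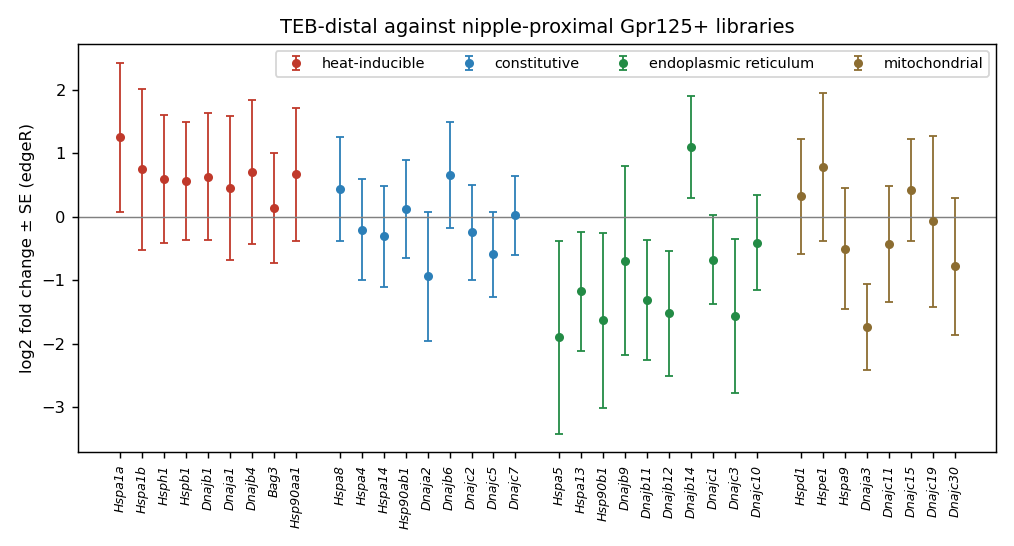
Log2 fold change of TEB-distal against nipple-proximal Gpr125+ cells (edgeR, 2 libraries each) for the members of 4 lists. Points are estimates and bars 1 SE. The SE rests on the spread within the groups of all 6 libraries, those labelled Gpr125-negative included. All 9 heat-inducible points lie above 0, from 0.14 to 1.25, and 9 of the 10 endoplasmic reticulum points below 0, and no gene was called.

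Chaperones and regulators outside the family were examined beside it. Of 15 co-chaperones and HSF1 targets, 0 were called in any comparison in edgeR, and 10 were higher in replicate 2 than in replicate 1 labelled Gpr125-negative (median 0.66 in log2 CPM, against 3.11 for the heat-inducible members). Within this list the crystallin Cryab was at 637 to 1887 CPM, the HSP70-HSP90 organizer Stip1 at 877 to 1359 CPM and the HSP90 co-chaperone Ptges3 (p23) at 152 to 1459 CPM. The 8 subunits of the cytosolic chaperonin TRiC were close to the constitutive members in that pair, with 8 of 8 higher in replicate 2 labelled Gpr125-negative (median 1.27) and 0 called, and Cct8 was at 423 to 1729 CPM. Immediate early genes, which answer many stimuli rapidly, summed to 2359.7 to 3944 CPM, and 3 of 10 were higher in replicate 2 than in replicate 1 labelled Gpr125-negative.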

How the data were processed

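The 6 libraries were prepared with the low-input SMART-Seq HT kit. The authors deposited raw read counts per gene for each library, whole numbers without normalization or filter, aligned to mm10 with STAR (version 2.7.3 in the submitters' processing notes) and counted with HTSeq without regard to strand. Total counts were 20134890 to 37296640 per library, and 3 counts (0.0804 to 0.149 CPM) were taken as the floor. Intervals from counts would cover counting error only, since the reads carry no molecular identifiers.

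Groups came from the sample labels. The members and gene lists were chosen with earlier results of these data known, so no list was tested as a set: counts and medians stand beside those of all genes. The quasi-likelihood test of edgeR 4.0.16 (R 4.3.3; TMM, filterByExpr by group, robust glmQLFit) was run on the counts of all 6 libraries together, for 17268 genes in 3 comparisons. Calls needed an adjusted p (Benjamini-Hochberg) under 0.1 and at least 2-fold, the thresholds of the study for its comparisons with Gpr125-negative cells. For the 2 Gpr125+ populations, the methods of the study give an adjusted p under 0.05 and its figure legend 0.1. The study used DESeq2. DESeq2 1.42.0 was an alternative, as were its size factors, the filter on low counts, edgeR on 4 libraries, an adjusted p under 0.05, the replicate block, summed Hspa1a and Hspa1b, and each library left out. Log2 CPM used a prior count of 2. Scripts were tested on simulated data. Named genes were all members of the 6 lists, Hsf1 and, in each comparison, up to 3 members outside the lists per direction with the largest log2 fold change among those whose groups did not overlap. Dnajb5, Dnajb8, Dnajc12, Dnajc8, Dnajc22 and Dnajc28, and Itga6, Pecam1, Trp63, Krt5 and Oxtr, were named after their values were seen.

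Replicate numbers were taken from the labels. The deviations of same-numbered libraries from their group means correlated at -0.03 (labelled Gpr125-negative with TEB-distal), 0.19 (labelled Gpr125-negative with nipple-proximal) and -0.00 (TEB-distal with nipple-proximal) across all tested genes, and at 0.01, 0.62 and 0.07 across the members. As only 1 of the 3 was above 0.1 across genes and the labels name nothing that a number shares, the numbers were not taken to pair the libraries. Coordinates and exon lengths are from GENCODE M21 (GRCm38), in which all 72 members were found. Promoter windows are from RefSeq (GRCm38.p6).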

Additional observations from a re-analysis of the deposited data

How the results depend on the processing

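The 65 tested members gave 0 calls in edgeR under every alternative to the fit, filter, threshold and libraries. DESeq2 called 1 member (Dnajc6) in each comparison with the libraries labelled Gpr125-negative on all 6 libraries and, on the 4 compared libraries, 1 (TEB-distal) and 0 (nipple-proximal). Over all genes DESeq2 on 6 libraries called 943 (TEB-distal against labelled Gpr125-negative), 321 (nipple-proximal against the same) and 133 (TEB-distal against nipple-proximal), DESeq2 on 4 libraries 682, 317 and 357, and edgeR on every gene with at least 1 count 137, 58 and 39, against 0 in each. The cause was not tested.

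With each library left out, the genes called were 0 to 747, 0 to 335 and 0 to 12, the highest without replicate 1 labelled Gpr125-negative (747 and 335) and without nipple-proximal replicate 2 (12). In that range the heat-inducible median was -0.90 to 2.22 (TEB-distal) and -1.57 to 1.67 (nipple-proximal), the constitutive median -0.82 to 0.71 and -0.51 to 0.64, and their difference -0.08 to 1.51 and -1.06 to 1.03. The endoplasmic reticulum median of the TEB-distal against the nipple-proximal cells was -1.55 to -0.19, and the small heat shock protein median of TEB-distal cells was 0.00 to 1.73, lowest without TEB-distal replicate 2. The lists of the endoplasmic reticulum, mitochondria and small heat shock proteins were put through the alternatives after the data were seen.

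With the replicate number as a block, 0 genes and 0 members were called in each comparison, and the heat-inducible medians were 0.62, -0.22 and 0.80. As the numbers were not taken to pair the libraries, nothing is read from the block. Over the alternatives other than leaving out libraries, the median of all genes moved between -0.17 and 0.19, and the heat-inducible medians kept their sign in all 3 comparisons. Summed as 1 gene, Hspa1a and Hspa1b had log2 fold changes of -0.62, -1.45 and 0.83 (adjusted p = 1 in edgeR for each). The main edgeR fit, with the low-count filter, had 2 libraries a group and a common biological coefficient of variation of 0.967. It called no change, also not the log2 fold change of 5.98 of Dnajc6 (adjusted p = 0.803). A gene without a call is therefore not shown to be unchanged.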
